A study of Mus musculus with 52 samples.

Results

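The 10 genes described here make up the core of antigen presentation by the major histocompatibility complex (MHC), and their levels were followed across 8 tissues of mice lacking Tug1, a long noncoding RNA. They were chosen by symbol, and all 10 were listed in every tissue, out of 39144 genes in the tables as a whole. The class II genes H2-Aa, H2-Ab1 and H2-Eb1 encode the chains that hold the peptide. Cd74, H2-DMa and H2-DMb1 encode their chaperones and Ciita their coactivator, and H2-K1, H2-D1 and B2m encode the class I heavy chains and their light chain.

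MHC class II molecules are pairs of an alpha and a beta chain that carry peptides from engulfed material to CD4 T cells, and they are made mainly by dendritic cells, macrophages and B cells. Their invariant chain, Cd74, guards the peptide groove on the way to the endosome, where the H2-DM dimer exchanges the remaining fragment for other peptides. Class I heavy chains pair with beta-2 microglobulin on nearly every nucleated cell and show peptides from the cytosol to CD8 T cells.

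PolyA RNA of male mice was sequenced. Behind the means stood, for MEFs (mouse embryonic fibroblasts) and for eye, spleen, liver and heart, 3 wild type and 3 Tug1-/- samples each, in prostate 3 and 2, and in testes 4 wild type, 4 Tug1-/- and 3 Tug1 rescue samples. The knockout allele Tug1_tm1.1Vlcg exchanges the gene body for lacZ and leaves the promoter and first exon. The labels gave the background as C57BL/6J/129S6 throughout, and as N3-C57BL/6J without Neo in the tissues other than testes. In testes, the label was C57BL/6J without Neo for wild type animals and C57BL/6J with Neo and LacZ for Tug1-/- and rescue animals. The paper's methods, however, state that mice lacking Neo were chosen to expand the colony. The lacZ cassette goes with the Tug1 genotype in every tissue, and the Neo label does so in testes, so neither can be told apart from the genotype. Rescue animals were Tug1-/- and also carried tg(Tug1), a randomly integrated inducible Tug1 isoform, and CAGs-rtTA3, a doxycycline-dependent activator under a ubiquitous promoter, and they were fed doxycycline. The paper's methods name a B6N.FVB(Cg) line as the source of the activator, so rescue animals had a further strain in their history. The MEFs came from littermate embryos at a low passage. The labels gave no ages. The brain means came from an earlier dataset whose samples are not among those described here. A further 6 testes samples from F1 hybrid mice were not analysed here.

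Only a mean for each tissue and genotype was used, so no error, n or test belongs to any value in this section, and nothing shows whether a difference exceeds the spread between animals. Levels are the authors' mean TPM, transcript abundances scaled by library and by gene length, so that genes can be compared. Differences are log2 ratios of the means after 0.1 TPM was added to each, which understates the change of low genes. A difference is described as past 1.5-fold only where at least one of the groups reached 1 TPM, and the share of all genes past 1.5-fold in the same comparison is given as the background. In bulk tissue, fewer cells of a type and less RNA per cell cannot be told apart.

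The mean normalized reads per sample came to between 17573743 in brain and 48341823 in eyes, and none were used for testes. Tug1 itself was between 10.1 and 57.5 TPM in wild type tissues and at 2.21% of wild type or less in every knockout. It was 1.60 TPM in rescue testes, against 0.885 TPM in Tug1-/- and 40.1 TPM in wild type testes. The summed level of 4 defining markers of each tissue was highest in that tissue. Of the prostate markers, however, Spink1 was 68.8 TPM in Tug1-/- spleen and listed at 0 in wild type spleen. No other prostate marker reached 1 TPM in spleen. In the same tissue, the liver markers Alb, Apoa1, Ttr and Cyp2e1 summed to 23.0 TPM in wild type against 1.28 TPM in Tug1-/- spleen. Whether other tissue in these spleen samples bears on the values below was not tested.

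Of the 10 genes, 7 lie in the MHC on chromosome 17 of the GRCm38 build, from the start of H2-K1 at 33996017 to the end of H2-D1 at 35267499. H2-DMa (34135182 to 34139101), H2-DMb1 (34153072 to 34160230), H2-Ab1 (34263209 to 34269418), H2-Aa (34282744 to 34287827) and H2-Eb1 (34305877 to 34316199) lie between them. B2m is on chromosome 2 (122147686 to 122153083), Ciita on chromosome 16 (10488178 to 10527564) and Cd74 on chromosome 18 (60803848 to 60812646). B2m overlaps Patl2 and Ciita overlaps Dexi, each on the opposite strand, and Cd74 holds the microRNA gene Mir5107. Because strand was not stated to be used in the counting, reads of such pairs cannot be told apart. H2-K1 and H2-D1 are close relatives of each other and of other class I genes, so their uniquely mapped reads are uncertain.

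Class II promoters are known for a module of an X box and a Y box that the RFX, CREB and NF-Y factors bind and that recruits the Ciita protein. The following sequences show that arrangement for the 3 class II genes whose RefSeq window starts near the gene start in the tables, as background to genes that were often high or low together. Each is the 150 bases before the RefSeq start in GRCm38.p6, written 5′ to 3′, namely chr17:34287824-34287973, minus strand, chr17:34305717-34305866, plus strand and chr17:34153041-34153190, plus strand. Capitals mark an X-type stretch, CTNGNAACT, and the Y box core, CCAAT or its complement ATTGG.

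H2-Aa: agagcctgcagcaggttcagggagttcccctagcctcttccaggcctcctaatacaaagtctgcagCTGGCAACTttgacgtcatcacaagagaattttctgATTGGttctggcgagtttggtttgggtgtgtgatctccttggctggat
H2-Eb1: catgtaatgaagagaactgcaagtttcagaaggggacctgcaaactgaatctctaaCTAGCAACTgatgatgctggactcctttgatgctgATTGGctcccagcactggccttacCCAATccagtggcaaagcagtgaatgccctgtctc
H2-DMb1: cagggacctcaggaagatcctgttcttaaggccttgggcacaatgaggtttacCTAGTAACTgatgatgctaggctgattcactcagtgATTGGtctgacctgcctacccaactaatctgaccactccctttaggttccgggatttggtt

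The letters of the X-type stretch were chosen after these windows were read, so its presence in them is not a finding. H2-DMa also has RefSeq windows, but the nearer starts 9664 bases from the start in the tables, it held neither stretch, and it is not printed. Of all windows, 2.00% of 32851 of the same length held the X-type stretch on either strand, and 24.5% held CCAAT. For class I, H2-K1 (chr17:34000334-34000483, minus strand) and B2m (chr2:122147537-122147686, plus strand) are shown in the same way, with capitals for CCAAT and for AANNGAAA, the core letters that interferon regulatory factors bind, or their complements. The core was held by 12.4% of all windows, the search covered both strands, and a match is only a match of letters.

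H2-K1: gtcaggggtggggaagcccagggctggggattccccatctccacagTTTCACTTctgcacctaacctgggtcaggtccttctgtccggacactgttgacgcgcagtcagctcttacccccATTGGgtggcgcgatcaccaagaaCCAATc
B2m: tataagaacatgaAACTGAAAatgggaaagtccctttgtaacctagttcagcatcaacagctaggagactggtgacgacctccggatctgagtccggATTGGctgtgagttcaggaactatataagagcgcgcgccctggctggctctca

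The class II chains were highest in spleen and lowest in MEFs. In wild type spleen, H2-Aa had 4386 TPM, H2-Ab1 3148 TPM, H2-Eb1 4646 TPM and Cd74 11395 TPM, between 36.2 and 44.3 times the tissue that came next. Prostate, heart and eyes followed, with 47.3 to 128 TPM for the chains, then liver with 24.0 to 30.3 TPM, testes with 11.3 to 16.8 TPM and brain with 4.98 to 7.13 TPM. With no spread at hand, no order is claimed between neighbours such as prostate and heart. In wild type MEFs, H2-Aa was 0.0469 TPM, from 0.876 normalized reads on average, which is too little to compare genotypes.

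Ciita followed the same outline at lower levels, with 205 TPM in wild type spleen, 2.65 TPM in heart, 1.55 TPM in eyes, 1.18 TPM in prostate and below 1 TPM in the other tissues. H2-DMa differed from the chains in its order, since brain (16.1 TPM) and testes (13.6 TPM) came directly after spleen (353 TPM) and liver was lowest at 3.07 TPM. H2-DMb1, its partner in the H2-DM dimer, had 187 TPM in spleen and between 1.40 and 8.59 TPM elsewhere.

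The class I genes spanned a smaller range. B2m lay between 220 TPM in testes and 7699 TPM in spleen of wild type mice, with 4789 TPM in prostate, 4076 TPM in liver and 1363 TPM in MEFs. H2-K1 was 2124 TPM in spleen, 897 TPM in liver and 26.3 TPM in MEFs, and H2-D1 was 1915 TPM in spleen, 409 TPM in prostate and 36.6 TPM in testes. H2-K1 exceeded H2-D1 2.57 times in wild type liver and 2.35 times in testes, and was below it in brain, at 0.464 of H2-D1, and in MEFs, at 0.466. B2m was 16.5 times the sum of both heavy chains in wild type MEFs and between 1.79 and 5.10 times that sum in the other wild type tissues.

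**Figure D1:**
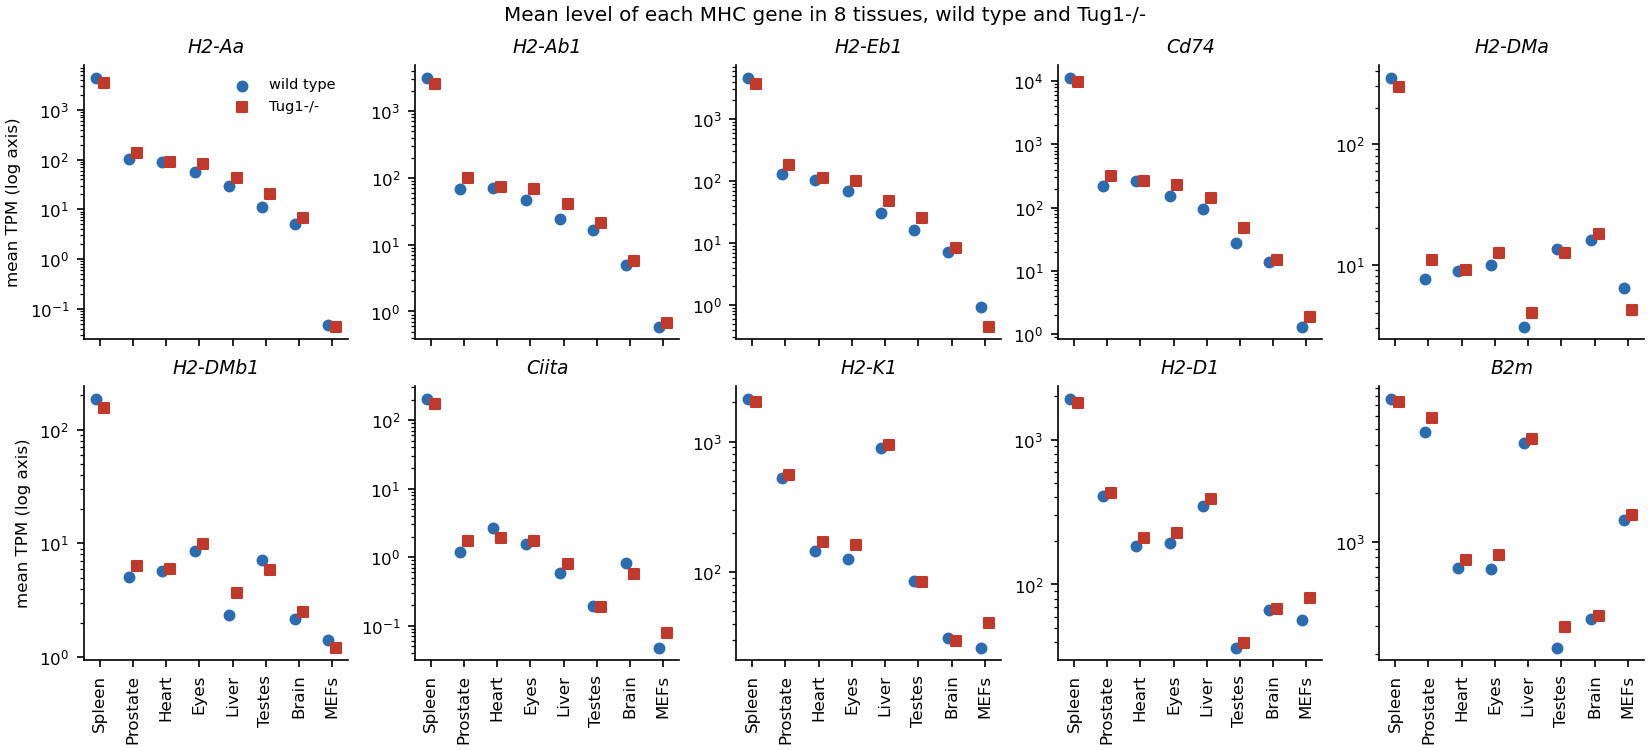
Mean TPM (log axis, own scale for each gene) of the 10 genes in 8 tissues, with circles for wild type and squares for Tug1-/-, each the authors' mean with no error. Spleen is highest for all 10, the class II chains, Cd74 and Ciita are lowest in MEFs, and the genotypes lie close together relative to the distance between tissues.

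In testes, the organ where the study followed male fertility, means of wild type, Tug1-/- and rescue animals could be set side by side. Rescue animals also carried the transgenes and were fed doxycycline. Effects of Tug1 RNA, of the transgenes and of the diet cannot be told apart in them. H2-Aa had a mean of 11.3 TPM in wild type, 20.0 TPM in Tug1-/- and 20.4 TPM in rescue testes. H2-Eb1 had 16.2, 25.4 and 26.2 TPM and Cd74 27.1, 46.6 and 49.9 TPM in the same order. These 3 genes were past 1.5-fold higher in Tug1-/- than in wild type testes, with log2 ratios of 0.81, 0.65 and 0.78, against a background of 2.75% of 22378 genes higher and 3.51% lower. H2-Ab1, the beta chain that pairs with H2-Aa, went from 16.8 to 21.3 TPM (log2 ratio 0.34).

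The H2-DM genes were not among those that were higher in testes. H2-DMa was 13.6 TPM in wild type against 12.4 TPM in Tug1-/-, and H2-DMb1 was 7.12 and 5.82 TPM (log2 ratios -0.13 and -0.29). Ciita was at 0.193 and 0.185 TPM, below the 1 TPM minimum in both. Class I was split as well, since H2-K1 (85.9 and 83.7 TPM) and H2-D1 (36.6 and 39.5 TPM) were near their wild type levels, while B2m was 220 TPM in wild type against 293 TPM in Tug1-/- (log2 ratio 0.42).

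The rescue testes stayed near Tug1-/- for the class II chains and differed for B2m. Comparisons of rescue with Tug1-/- and with wild type testes share groups with the one above, and their values are given side by side. Rescue over Tug1-/- was between -0.04 and 0.34 (log2) for the 6 class II genes, and none was past 1.5-fold, with 1.42% of genes higher and 3.22% lower. B2m was 138 TPM in rescue testes, the lowest of the 3 genotypes, at a log2 ratio of -1.09 over Tug1-/-, and it was the only one of the 10 past 1.5-fold there. Over wild type, rescue was past 1.5-fold higher for H2-Aa (0.85), H2-Eb1 (0.69) and Cd74 (0.88) and lower for B2m (-0.67), against 2.79% of genes higher and 5.14% lower. H2-Ab1 was 24.3 TPM in rescue testes, H2-K1 77.1 TPM and H2-D1 31.6 TPM.

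**Figure D2:**
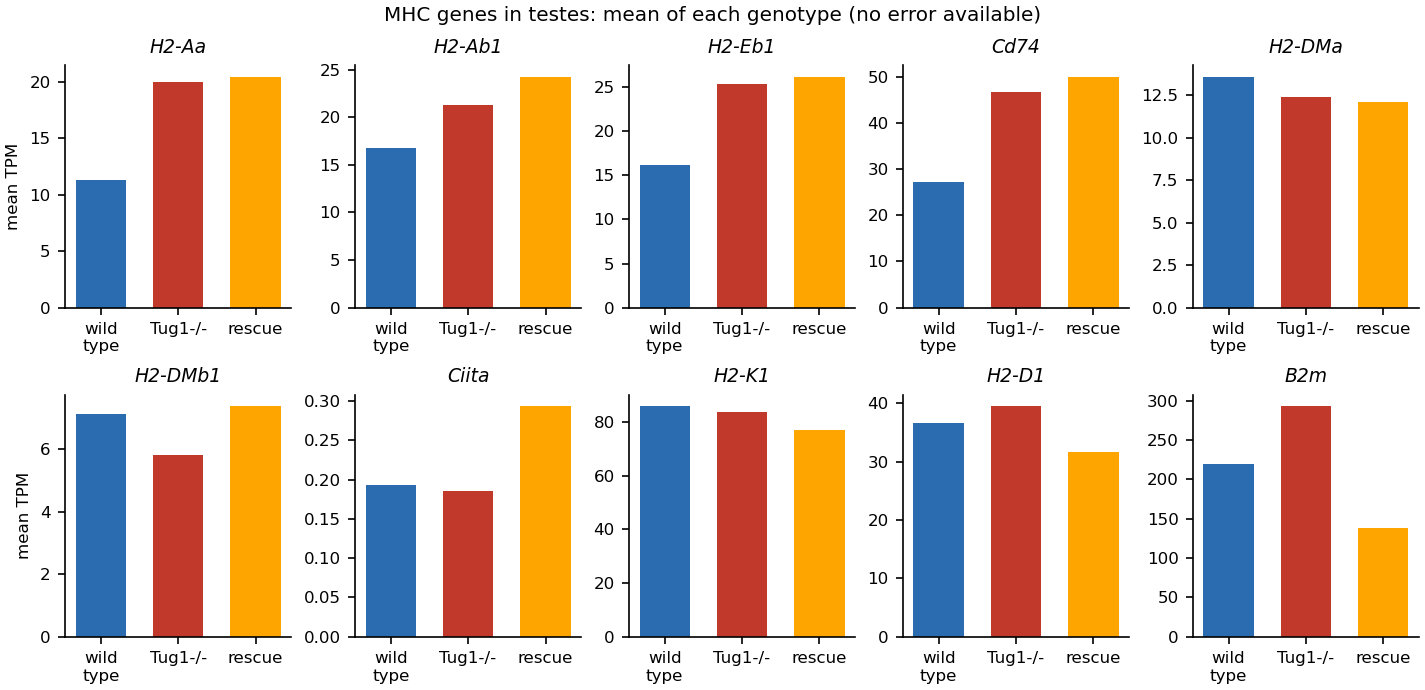
Mean TPM of the 10 genes in testes by genotype, wild type, Tug1-/- and rescue (bars from 0, no error available). H2-Aa, H2-Eb1 and Cd74 are higher in both Tug1-/- and rescue than in wild type, whereas B2m is 220, 293 and 138 TPM.

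Other genes of the pathway in testes were mostly near wild type. Of 13 listed genes of class II loading and transcription, 10 reached 1 TPM, Lgmn, a lysosomal protease that trims antigen, was higher (43.7 to 72.8 TPM) and H2-DMb2, the closely related neighbour of H2-DMb1 with which it may share reads, was lower. H2-DMb2 was 3.81 TPM in wild type, 0.530 TPM in Tug1-/- and 0.525 TPM in rescue testes, a log2 ratio of -2.63 for Tug1-/- over wild type. With a minimum of 5 TPM, it was not counted in testes. In no other tissue was H2-DMb2 past 1.5-fold between genotypes except heart, where it was 5.67 TPM in wild type against 3.09 TPM in Tug1-/-. None of the 12 class I loading genes at 1 TPM or more was past 1.5-fold in Tug1-/- testes, and of 12 interferon gamma response genes Gbp3 (1.48 to 2.51 TPM), Gbp2 (2.28 to 3.67 TPM) and Iigp1 (1.83 to 2.93 TPM) were higher, none of them with 1 TPM added or with a minimum of 5 TPM.

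Markers of antigen presenting cells in testes were higher for macrophages. The 9 macrophage markers summed to 87.0 TPM in wild type, 111 TPM in Tug1-/- and 122 TPM in rescue testes, with 8 of 8 at 1 TPM or more above 0 in log2 ratio and a median of 0.32 in Tug1-/-, although none was past 1.5-fold. In rescue over wild type testes, 6 of 8 were above 0 with a median of 0.38, and C1qa (13.6 to 23.5 TPM), C1qb (22.2 to 33.5 TPM) and C1qc (8.37 to 12.8 TPM) were past 1.5-fold higher. Of the T cell markers, 4 reached 1 TPM in Tug1-/- or wild type testes, 2 of them above 0, with a median of -0.13, and Cd2, an adhesion receptor, was past 1.5-fold lower (1.74 to 1.09 TPM). Dendritic cell markers in the 3 genotypes summed to 15.3, 15.9 and 15.6 TPM, and B cell markers to 12.4, 13.5 and 13.4 TPM. In rescue over wild type, 3 of 6 dendritic cell markers were above 0, and Itgax was past 1.5-fold higher at a low level (0.473 to 1.06 TPM). Of the markers of other tissues, the lens gene Cryaa was 0.217, 2.06 and 4.23 TPM in wild type, Tug1-/- and rescue testes, and Cyp2e1 was past 1.5-fold higher in Tug1-/- (2.26 to 3.56 TPM). Cyp2e1 was the only liver marker that reached 1 TPM there. The part of these markers in the class II values was not tested.

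In liver, class II and class I parted. H2-Ab1 was 24.0 TPM in wild type against 40.0 TPM in Tug1-/-, H2-Eb1 30.3 and 47.8 TPM, and H2-DMb1 2.35 and 3.66 TPM. These were past 1.5-fold higher (log2 ratios 0.73, 0.66 and 0.62), against 3.37% of 12121 genes higher and 2.65% lower. H2-DMb1 was no longer among them with 1 TPM added (0.48) or with a minimum of 5 TPM. H2-Aa (28.9 to 43.3 TPM) and Cd74 (93.5 to 140 TPM) lay just under that fold, both at 0.58, and H2-DMa was at 0.37. The median of the 6 class II genes was 0.60, and that of all genes in liver 0.01. H2-K1 (897 and 939 TPM), H2-D1 (349 and 389 TPM) and B2m (4076 and 4363 TPM) had log2 ratios of 0.07 to 0.16.

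Among the listed genes in liver, Adgre1, the gene of the macrophage marker F4/80, was 12.3 TPM in wild type against 21.0 TPM in Tug1-/-, and 8 of 8 macrophage markers were above 0 with a median of 0.46. Clec9a, a dendritic cell receptor, was 0.745 and 1.42 TPM. Cxcl9, an interferon gamma induced chemokine, was 5.81 and 9.77 TPM, the only one of 13 interferon gamma response genes past 1.5-fold. Of the loading genes, none of 10 for class II and none of 13 for class I was past it. The 10 B cell markers summed to 5.19 TPM in wild type against 4.77 TPM in Tug1-/- liver. Of the markers of other tissues, the testes marker Cyp17a1 was 6.75 and 34.2 TPM and the prostate marker Spink1, at 0.411 TPM in wild type, had a log2 ratio of 1.40. Each was the only marker of its tissue with values in liver. The part of these markers in the liver values was not tested.

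In prostate, with 2 Tug1-/- samples, all 6 class II genes were higher by like amounts, and none was past 1.5-fold. H2-Aa was 102 TPM in wild type against 137 TPM in Tug1-/-, H2-Ab1 68.1 and 98.3 TPM, H2-Eb1 128 and 184 TPM, and Cd74 218 and 312 TPM. Log2 ratios were between 0.30 for H2-DMb1 and 0.53 for H2-Ab1, with a median of 0.51, and Ciita (1.18 to 1.75 TPM) was at 0.53. The background was 5.32% of 15547 genes higher and 2.67% lower, with a median of 0.04. H2-K1 and H2-D1 had log2 ratios of 0.06 and 0.07, and B2m of 0.28 (4789 to 5815 TPM).

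In the same prostate means, 6 of 9 macrophage markers were past 1.5-fold higher. They included Mrc1, a mannose receptor (6.41 to 16.4 TPM), C1qa, a complement component (50.4 to 79.7 TPM), and Adgre1 (5.27 to 9.07 TPM), and the summed level of the list was 164 TPM in wild type against 254 TPM in Tug1-/-. Of 15 interferon gamma response genes 5 were higher, all low in level, such as Cxcl9 (1.15 to 2.26 TPM) and Iigp1 (2.45 to 4.76 TPM), and 2 of them were past the limit with 1 TPM added and none with a minimum of 5 TPM. Of the class II loading genes, H2-Oa, a chain of the H2-O dimer that restrains H2-DM, was higher (0.651 to 1.15 TPM), though not under either of these settings, and no class I loading gene was past 1.5-fold. The 10 B cell markers summed to 5.67 and 7.23 TPM, with 3 of 3 at 1 TPM or more above 0, and Cr2, a complement receptor, was past 1.5-fold higher (0.539 to 1.31 TPM). Single markers of other tissue differed too. Cyp2e1, the only liver marker at 1 TPM or more in prostate, was 8.08 and 62.2 TPM, while Alb was 0.148 and 0.535 TPM. Among the prostate markers, Spink1 was lower (5.39 to 3.50 TPM) and Msmb higher (9.65 to 18.3 TPM). The part of these cells or of other tissue in the prostate values was not tested.

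In eyes, all 10 genes were higher in Tug1-/-, and the class II chains stood at nearly equal ratios. H2-Aa was 55.1 and 79.8 TPM, H2-Ab1 47.3 and 68.6 TPM, H2-Eb1 68.0 and 98.7 TPM, and Cd74 153 and 224 TPM, with log2 ratios between 0.53 and 0.54. H2-DMa (0.33), H2-DMb1 (0.21), Ciita (0.15), H2-K1 (0.36), H2-D1 (0.24) and B2m (0.30) had lower ratios. None was past 1.5-fold, against 3.19% of 19709 genes higher and 4.68% lower (628 and 923 genes, or 823 and 639 once centred on the median of all genes). The median of all genes in eyes was -0.11, so relative to that median the class II median was 0.64 and the class I median 0.41, and 4 of the 10, the 3 chains and Cd74, came past 1.5-fold.

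Eyes also differed in markers. Macrophage markers summed to 337 TPM in wild type against 417 TPM in Tug1-/-, with 8 of 9 above 0 and none past 1.5-fold, and of 5 dendritic cell markers 3 were above 0, with a median of 0.07, and Cd209a was past 1.5-fold higher (1.83 to 3.70 TPM). Interferon gamma response genes did not go one way, since Cxcl9 was higher (0.943 to 1.53 TPM) while Socs1, an inhibitor of cytokine signalling (3.75 to 2.02 TPM), and Cxcl10, a chemokine (3.38 to 1.99 TPM), were lower, and of these 3 genes 1 was past 1.5-fold with 1 TPM added and none with a minimum of 5 TPM. Actc1, a heart marker, was 244 TPM in wild type against 448 TPM in Tug1-/- eyes, and Cyp2e1, a liver marker, was 39.1 and 181 TPM. Of the 2 liver markers at 1 TPM or more in eyes, only Cyp2e1 was above 0. The liver markers Alb (0.486 and 0.0388 TPM) and Apoa1 (0.468 and 0.449 TPM) were low in both genotypes. None of these was tested for a part in the class II values.

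In heart, the class II chains hardly differed although B cell markers did. H2-Aa was 90.3 TPM in wild type against 88.3 TPM in Tug1-/-, H2-Ab1 71.1 and 73.4 TPM, H2-Eb1 103 and 112 TPM, and Cd74 259 and 265 TPM, and the 6 class II genes lay between -0.03 and 0.12 on the log2 scale. H2-K1 (145 to 170 TPM), H2-D1 (184 to 211 TPM) and B2m (690 to 770 TPM) were at 0.24, 0.20 and 0.16. None of the 10 was past 1.5-fold, and 2.08% of 14004 genes were higher and 2.49% lower (291 and 348 genes, or 198 and 449 once centred). The median of all genes was 0.10 in heart, and relative to it the class II median was -0.07 and the class I median 0.09.

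Ciita had the lowest ratio of the 10 in heart, with 2.65 TPM in wild type against 1.92 TPM in Tug1-/- (log2 ratio -0.44), with 3.56% of genes lower than that. In the same means, 8 of 9 B cell markers at 1 TPM or more were past 1.5-fold lower, with a median of -1.07, and the list summed to 58.3 TPM in wild type against 29.1 TPM in Tug1-/-. Cd79b, a part of the B cell receptor, was 17.4 and 7.76 TPM, and Cd79a, its partner there, 12.5 and 5.91 TPM. Class II loading genes that B cells are known to make, H2-Oa (1.93 to 0.939 TPM), H2-Ob (6.86 to 3.43 TPM) and H2-DMb2, were also past 1.5-fold lower, as was the T cell marker Cd2 (3.19 to 1.97 TPM), while macrophage markers summed to 317 TPM in wild type against 432 TPM in Tug1-/-. Of 5 dendritic cell markers at 1 TPM or more, Cd209a (1.90 to 0.909 TPM) and Ccr7, a chemokine receptor (5.04 to 2.59 TPM), were past 1.5-fold lower. The part of these cells in the heart values was not tested.

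Spleen, the organ with the highest levels, was the only tissue in which all 10 genes were lower in Tug1-/-. H2-Aa was 4386 TPM in wild type against 3367 TPM in Tug1-/-, H2-Ab1 3148 and 2508 TPM, H2-Eb1 4646 and 3732 TPM, Cd74 11395 and 9850 TPM, and Ciita 205 and 171 TPM. The log2 ratios of the 6 class II genes ran from -0.38 to -0.21, and those of class I from -0.10 to -0.07. None was past 1.5-fold, and the background was 5.4% of 17260 genes higher and 5.07% lower (932 and 875 genes, or 1168 and 556 once centred). Since the median of all genes was -0.11 in spleen, the class II genes lay -0.10 to -0.27 relative to it, and the class I median was 0.03.

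The B cell markers in spleen were lower too, with 10 of 10 below 0 and a median of -0.41, from a sum of 6064 TPM in wild type to 4518 TPM in Tug1-/-. Fcer2a, the low affinity IgE receptor of B cells, was the one past 1.5-fold (371 to 233 TPM). Macrophage markers had a median of -0.07 and dendritic cell markers of -0.13, close to that of all genes. No gene of the class I loading, class II loading or interferon gamma lists was past 1.5-fold in spleen. The part of B cells in the spleen values was not tested.

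In MEFs, where the class II chains were below 1 TPM, the class I heavy chains were higher. H2-K1 was 26.3 TPM in wild type against 40.7 TPM in Tug1-/- and H2-D1 56.5 and 80.1 TPM (log2 ratios 0.62 and 0.50), while B2m was 1363 and 1467 TPM (0.11). H2-K1 was past 1.5-fold higher and H2-DMa, at 6.38 and 4.22 TPM, past it lower (-0.59), against 3.82% of 14824 genes higher and 3.91% lower. H2-DMa dropped under that fold with 1 TPM added or among protein-coding genes only, and H2-K1 did so relative to the median of all genes. The 6 genes that reached 1 TPM also included Cd74 (1.30 and 1.86 TPM) and H2-DMb1 (1.40 and 1.21 TPM). H2-Eb1 was 0.925 and 0.446 TPM from 8.45 normalized reads, and a difference in it could not be judged at this depth.

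Cxcl10 was higher in Tug1-/- MEFs (4.37 to 10.2 TPM), the only one of 13 interferon gamma response genes past 1.5-fold, and 12 of those 13 were above 0, with a median of 0.34. Class I loading genes were not past it, with Tap1, a subunit of the peptide transporter, at 8.67 and 8.23 TPM. Macrophage markers summed to 471 TPM in wild type against 367 TPM in Tug1-/- MEFs, of which Adgre1 was higher (19.8 to 29.8 TPM) and Mrc1 (16.9 to 10.6 TPM) and Fcgr1, an IgG receptor (6.50 to 3.97 TPM), were lower, with 1 of 9 above 0 and a median of -0.40, and the B cell list summed to 1.14 and 1.15 TPM. Their part in the MEF values was not tested.

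In brain, the class II ratios were small in size but high among the genes of that tissue. H2-Aa had a higher ratio than 96.0% of genes at 1 TPM or more, and Cd74, the lowest of the 6, than 82.9%. H2-Aa was 5.20 TPM in wild type against 6.81 TPM in Tug1-/- (log2 ratio 0.38, from 47.0 normalized reads on average), and the other class II genes were between 0.09 and 0.21. H2-K1 (31.0 and 29.7 TPM), H2-D1 (66.9 and 67.9 TPM) and B2m (330 and 344 TPM) lay between -0.06 and 0.06. Ciita was 0.813 and 0.574 TPM and did not reach 1 TPM in either genotype. None was past 1.5-fold, where 2.19% of 17729 genes were higher and 3.94% lower. Of the pathway lists, only Socs1 (1.53 to 2.41 TPM) was past it, though not with 1 TPM added or with a minimum of 5 TPM.

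**Figure D3:**
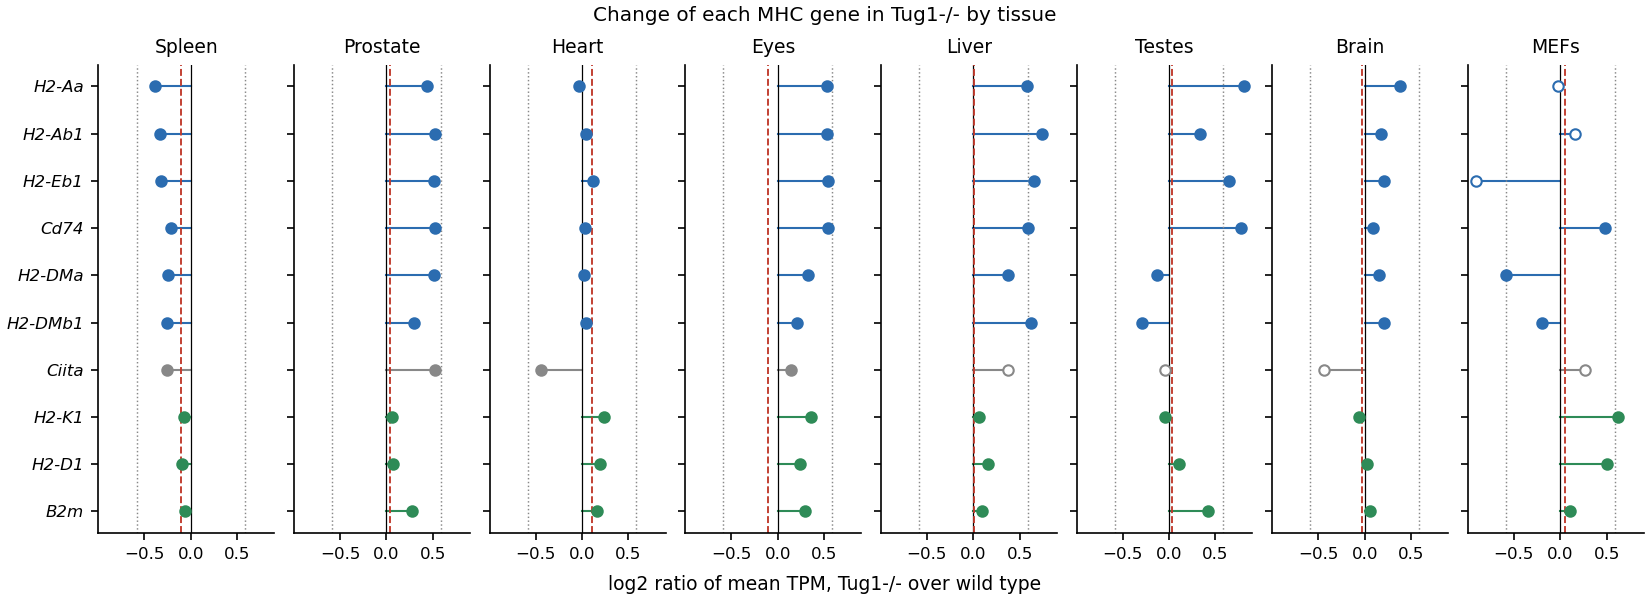
Log2 ratio of mean TPM, Tug1-/- over wild type, for each gene in each tissue, with class II in blue, Ciita in grey and class I in green. Open circles mark genes below 1 TPM in both groups, dotted lines 1.5-fold and the dashed line the median of all genes. Class II lies to the right in prostate, eyes, liver and for 4 genes in testes, less far to the right in brain, near 0 in heart and to the left in spleen.

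Set side by side, the median log2 ratio of the class II genes that reached 1 TPM was 0.60 in liver, 0.53 in eyes, 0.51 in prostate, 0.49 in testes, 0.19 in brain, 0.04 in heart, -0.20 in MEFs with 3 genes, and -0.29 in spleen. For class I it was 0.50 in MEFs, 0.30 in eyes, 0.20 in heart, 0.11 in testes, 0.10 in liver, 0.07 in prostate, 0.02 in brain and -0.08 in spleen. Medians of all genes were between -0.11 and 0.10. No test of a difference between tissues was possible from means.

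The proportions of the 3 class II chains were close between genotypes in several tissues. H2-Aa made up 32.3% of their summed TPM in wild type against 32.3% in Tug1-/- eyes, 34.8% and 33.0% in liver, and 36.0% and 35.0% in spleen. In testes it was 25.6% in wild type, 30.0% in Tug1-/- and 28.8% in rescue, and in brain 30.1% and 32.9%. In MEFs, where the chain sum was 1.57 TPM in wild type and thus rests on few reads, H2-Ab1 made up 37.9% and 57.9% and H2-Eb1 59.1% and 38.3%. In testes, Cd74 was 0.612 of the chain sum in wild type, 0.699 in Tug1-/- and 0.704 in rescue, in spleen it was 0.935 and 1.03, in brain 0.799 and 0.710, and in MEFs 0.832 and 1.60. B2m relative to the sum of H2-K1 and H2-D1 was 1.79 in wild type, 2.38 in Tug1-/- and 1.27 in rescue testes, 2.12 and 2.13 in eyes, and 16.5 and 12.1 in MEFs.

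**Figure D4:**
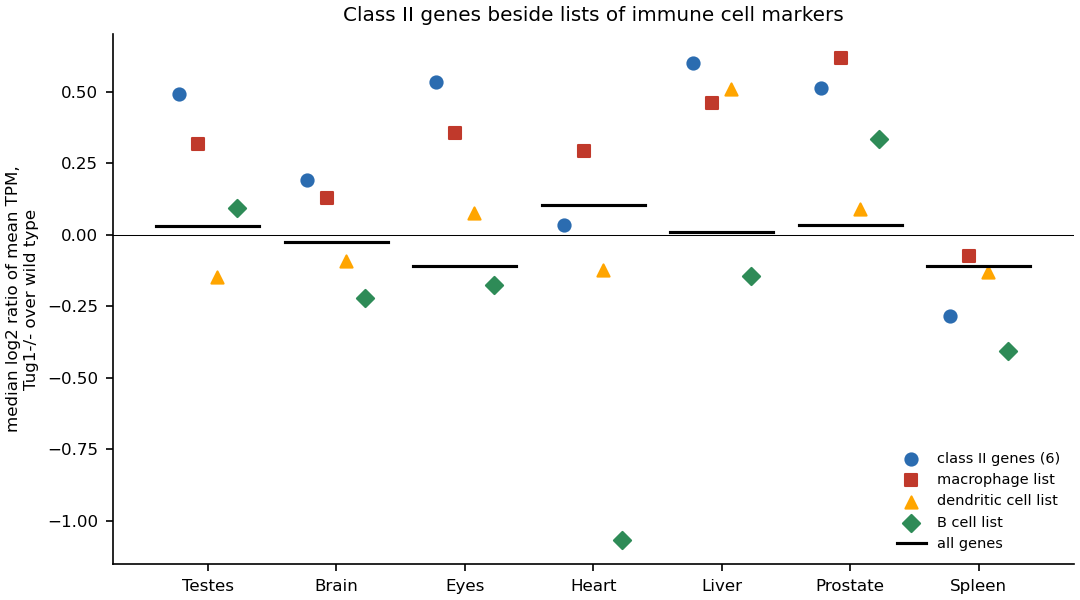
Median log2 ratio (Tug1-/- over wild type) of the 6 class II genes and of macrophage, dendritic cell and B cell marker lists in 7 tissues, with a bar at the median of all genes. MEFs are left out because no B cell marker reached 1 TPM. Among the tissues drawn, macrophage markers lie below 0 in spleen alone (in MEFs their median was -0.40), and B cell markers are lowest in heart, at -1.07.

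Genes between H2-K1 and H2-D1 other than the 10 had medians near that of all genes, between -0.12 in spleen and 0.14 in heart. Loading genes within the interval, such as H2-DMb2, were not left out, so the counts repeat genes named above. The share of these genes past 1.5-fold was above that of all genes in some comparisons and below it in others. In liver, 4 of 51 at 1 TPM or more were higher (7.84%, against 3.37% of all genes) and none lower (against 2.65%). In testes, 6 of 71 were lower in Tug1-/- (8.45%, against 3.51%), and 8 of 72 were lower in rescue than in wild type (11.1%, against 5.14%). In heart, 5 of 58 were lower (8.62%, against 2.49%) and 3 higher (5.17%, against 2.08%), and in prostate 6 of 64 were higher (9.38%, against 5.32%). In rescue over Tug1-/- testes, 2.90% of 69 were higher (against 1.42%) and 4.35% lower (against 3.22%). In spleen, 5 of 86 were higher (5.81%, against 5.4%) and 3 lower (3.49%, against 5.07%). The shares were below the background in both directions in eyes (1.30% higher and 3.90% lower, of 77), MEFs (2.13% each, of 47) and brain (1.67% and 3.33%, of 60), as were the lower share in prostate (1.56%) and the higher share in rescue over wild type testes (1.39%). This interval was chosen after the data were seen, and the counts have no test.

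Over the 17 group means, which share tissues and libraries, the genes outside the 10 whose level was most like the mean class II level were Ccr2 (Pearson r = 0.98), a chemokine receptor of monocytes, Igkc (0.98), the immunoglobulin kappa constant region, H2-Q5, Gimap3 and Arhgap18 (0.97, 0.97 and 0.96), among 30081 genes with at least 1 TPM in a group. Ciita, which is not part of that mean, had an r of 0.93 with it. The genes most like the mean class I level were Nmi (0.97), an interferon-induced gene, H2-T23 (0.96), a nonclassical class I chain, Dtx3l, Parp9 and Clec2d (0.96, 0.95 and 0.95). For the log2 ratios over the 8 tissues, the highest were Col3a1 (0.98), a fibrillar collagen, Nkx2-9, 1700001G11Rik, 9930004E17Rik and Ncf1 for class II, all at or above 0.96, and, among those for class I, Eng, Sp100, Lncenc1 and Gmfg (0.95, 0.93, 0.93 and 0.93). These are descriptions over few points, in which a high value is easily reached among so many genes.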

How the data were processed

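The authors aligned paired-end reads of polyA libraries to GRCm38 with STAR, counted uniquely mapped reads per GENCODE gene with featureCounts, removed genes that no replicate covered with 3 reads, and used DESeq2. Base calling with CASAVA 1.8.2 is named in the submitters' processing notes. The deposited values used here are the authors' mean TPM per genotype, in one table for testes and, stacked as a signal column over 7 tissues, in another, beside a mean normalized read count per gene (also a signal column). Columns of the authors' own comparisons (fold changes, their errors, test statistics, p-values and calls) were not used, and single samples were not analysed here. From the means, log2((mean TPM + 0.1)/(mean TPM + 0.1)) was computed with Python 3, numpy and pandas. Genes with at least 1 TPM in a group entered counts, and 1.5-fold was the limit. The calculation was checked on simulated means. The genes and lists were chosen with earlier results of these data known. Named genes were the 10, Tug1, listed genes past 1.5-fold (up to 3 per list and comparison) and the 5 most like each class by correlation, and H2-DMb2 and Tap1 values beyond these were chosen after they were seen. Promoter windows are from RefSeq, with 7 of the 10 genes matched, and those of H2-DMa and H2-D1 are not printed because the RefSeq start lies far from the start in the tables. Alternatives were another pseudocount, level minimum, centring, gene type and fold. Some named genes are not reported here.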

Additional observations from a re-analysis of the deposited data

How the results depend on the processing

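No paired analysis was possible because only group means were used, and no replicate could be left out. A lower limit, a ratio of means 25% above or the same ratio below, in place of 1.5-fold put 5 of the 10 genes past it in testes, 6 each in eyes, liver and prostate, 4 in MEFs, 2 in spleen, 1 each in brain and heart, and 2 for rescue over Tug1-/-. At 2-fold, 0 were past it in testes, liver and MEFs and for rescue over wild type. Centring each tissue on its median of all genes gave 4 genes in eyes and 1 in MEFs. It gave class II medians of 0.64 in eyes, -0.068 in heart, which was above 0 without it, and -0.18 in spleen, and class I medians of 0.41 in eyes, 0.093 in heart and 0.033 in spleen, which was below 0 without it. In MEFs, 1 gene was past 1.5-fold with 1 TPM added or among protein-coding genes only, and the class II median at 5 TPM or more was -0.59, from H2-DMa alone. The other alternatives to the counts and medians of the 10 genes moved medians by at most 0.1 (log2) and counts by at most 1.5 times. The share of all genes past the limit in either direction ranged over the 10 comparisons from 4.56% to 10.5% as reported. It ranged from 1.47% to 6.88% at 5 TPM or more, 2.35% to 6.48% with 1 TPM added, 8.75% to 15.3% with no minimum, 1.76% to 7.35% among protein-coding genes, 11.8% to 27.0% at the lower limit and 1.67% to 3.77% at 2-fold. The list counts moved more: the interferon gamma response count differed by more than 1.5 times in 5 of 10 comparisons with 1 TPM added and in 5 with a minimum of 5 TPM, and the class II loading count in 1 and 3. With no spread between animals, none of these values has an error, and the low read numbers behind H2-Aa, H2-Ab1 and H2-Eb1 in MEFs limit what their ratios can show.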
